A study of Mus musculus with 12 samples.

Results

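The 32 genes described here encode chaperones of the endoplasmic reticulum (ER) and the machinery of the unfolded protein response. They were chosen by name and sorted by function into classes, with 16 genes for folding, 8 for degradation, 4 for sensors and 4 for translocation and export. All 32 were among the 46262 genes in the table, and 31 were among the 12419 tested, since Derl3, at 0 to 0.339 TPM (a length-corrected share of a library's transcripts), did not reach 1 TPM in any library. RNA came from primary microglia of WT mice, the resident macrophages of the brain, taken from mixed glial cultures. The deposited table names the microglia as neonatal, and the labels used here give no age. The 4 groups of 3 libraries were forebrain microglia with CSF-1 at 20 ng/ml, forebrain microglia with IL-34 at 100 ng/ml, cerebellar microglia with CSF-1 at 20 ng/ml and cerebellar microglia with IL-34 at 100 ng/ml, each for 24 hours. CSF-1 and IL-34 are growth factors that share the receptor encoded by Csf1r. The design text states that replicates came from independent cultures. No group was left without a ligand and the doses differed, so a difference between ligands is also a difference between doses. The extraction protocol in the labels describes human tissue, while the organism, cell type and treatment labels are those of cultured mouse cells.

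Proteins that enter the ER are folded with the help of Hsp70-type and Hsp90-type chaperones, of the lectins calnexin and calreticulin, which hold glycoproteins, and of protein disulfide isomerases, which form and rearrange disulfide bonds. Proteins that fail to fold are taken back to the cytosol and degraded, a route in which mannosidase-like proteins, membrane channel proteins and a ubiquitin ligase take part. When unfolded proteins build up, the sensors IRE1, PERK and ATF6 start a response that slows translation and raises transcription of the folding and degradation genes. Macrophages secrete and display many glycoproteins, and microglia are the macrophages of the brain.

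TPM, the unit of the table, is corrected for transcript length and sums to 1000000 in every library, so depth is unknown and a value is a share of the library. Between 11740 and 11904 genes per library reached 1 TPM. The 10 microglial markers summed to between 6914 and 7485 TPM per library, although Tmem119 (7.15 to 20.4 TPM), P2ry12 (7.10 to 11.7 TPM) and Sall1 (4.19 to 6.26 TPM) were low. Summed markers of other cell types reached at most 31.7 TPM for astrocytes, 98.3 TPM for the oligodendrocyte lineage, 40.6 TPM for choroid plexus and ependyma, 15.2 TPM for plasma cells, 12.02 TPM for fibroblasts and mural cells, 10.6 TPM for endothelium and 2.24 TPM for neurons, with the neuronal Neurod1, the endothelial Cldn5 and the plasma cell gene Mzb1 listed at 0 in all 12 libraries. Short transcripts set the cerebellar IL-34 libraries apart. Those under 600 nt made up 2.58, 3.31 and 0.947% of TPM there, against 0.0269 to 0.555% in each of the 9 other libraries. In bulk RNA, fewer cells of a type and less RNA per cell cannot be told apart.

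The ER stress response element (ERSE) is the promoter sequence through which ATF6, together with the CCAAT-binding factor NF-Y, is known to act. It was searched as CCAAT, 9 bases of any kind and CCACG, and its second form, ERSE-II, as ATTGG, 1 base of any kind and CCACG, on both strands of windows from 250 bases before to 50 bases after each RefSeq start (GRCm38.p6). Windows of 27 members were searched, and those of Hyou1, Manf, Derl1, Atf6 and Sec61a1 were not. A match was found in 12 of the 27 genes, namely Hspa5, Hsp90b1, Calr, Canx, Pdia6, Dnajb11, Dnajc3, Creld2, Ero1lb, Herpud1, Syvn1 and Derl3. Among all 32851 windows, 51 (0.155%) held a match, 39 of them an ERSE and 12 an ERSE-II, with no window that held both. The stretches printed here show the element in 5 members that the results turn on and the second form in Herpud1, on the strand of the gene, with the fixed bases of the element in capitals. In Calr and in the site of Hsp90b1 nearer to the start the element lies on the opposite strand and is therefore read as CGTGG and ATTGG. The Hspa5 stretch is kept short because a GENCODE model of the gene reaches into it.
Hspa5, chr2:34772020-34772048, plus strand: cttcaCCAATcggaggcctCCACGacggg
Calr, chr8:84847055-84847113, minus strand: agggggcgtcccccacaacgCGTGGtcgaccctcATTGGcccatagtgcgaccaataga
Hsp90b1, chr10:86705618-86705676, minus strand: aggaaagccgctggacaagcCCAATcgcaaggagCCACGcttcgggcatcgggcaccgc
Hsp90b1, chr10:86705513-86705571, minus strand: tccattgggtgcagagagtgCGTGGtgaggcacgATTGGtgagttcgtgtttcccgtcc
Canx, chr11:50325780-50325838, minus strand: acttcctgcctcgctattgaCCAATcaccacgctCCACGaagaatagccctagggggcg
Pdia6, chr12:17266471-17266529, plus strand: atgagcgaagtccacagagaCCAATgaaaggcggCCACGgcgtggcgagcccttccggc
Herpud1, chr8:94386357-94386407, plus strand: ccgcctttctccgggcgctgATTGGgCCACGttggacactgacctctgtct

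These elements begin between 52 bases (Herpud1) and 212 bases (the farther site of Hsp90b1) before the start. In Hspa5 the distance is 65 bases, in Pdia6 98, in the nearer Hsp90b1 site 107, in Canx 145 and in Calr 162. A match says that these letters stand in the window, not that a factor binds there.

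The 32 genes together held between 0.424 and 0.533% of all TPM. Folding genes made up most of it, with summed levels (mean ± SD, n = 3 libraries per group, as throughout) of 3806 ± 98.3 TPM in the forebrain CSF-1 group, 3439 ± 127 in the forebrain IL-34 group, 3453 ± 7.83 in the cerebellar CSF-1 group and 2950.3 ± 99.3 in the cerebellar IL-34 group. In each region all 3 folding sums with IL-34 lay below all 3 with CSF-1, and the cerebellar IL-34 libraries (2892 to 3065 TPM) lay below the 9 others (3348 to 3888 TPM). The degradation genes summed to between 741 ± 31.2 TPM in forebrain with IL-34 and 848 ± 17.2 TPM in cerebellum with CSF-1. Sums for the sensors lay between 257 ± 16.3 TPM (forebrain, IL-34) and 298 ± 15.2 TPM (cerebellum, CSF-1). The translocation genes stayed between 325 ± 8.43 and 355 ± 3.16 TPM in those same groups. The sums follow the abundant genes, above all Hspa5, Pdia3, Calr, P4hb, Canx and Hsp90b1, and were not tested.

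IL-34 was compared with CSF-1 in each region and as the mean of both regions, by limma on log2(TPM + 1) with Benjamini-Hochberg adjustment over all genes tested, and a gene counted as changed at an adjusted p under 0.05. For the mean of both regions 16 of the 31 members tested were lower with IL-34 and 0 were higher, where 10.7% of all genes tested were lower and 2.73% higher. Of the 16, 11 were among the 16 folding genes, 1 (Edem1) among the 7 degradation genes tested, 2 (Xbp1 and Atf6) among the 4 sensors, and 2 (Sec24d and Ssr1) among the 4 translocation genes. The changes were small. They lay between -0.41 (Hyou1) and -0.12 (Dnajb11) on the log2 scale, and the median over the 31 members was -0.16, beside -0.07 over all genes. In cerebellum 10 members fell and 1, Sec61b, rose (background 9.82% lower and 3.00% higher), with a median of -0.15 beside -0.10. In forebrain limma called 0 members (background 0.773% lower and 0.427% higher), 11 had an unadjusted p under 0.05 (14.2% of all genes tested did), and 28 of the 31 differences were negative (61.1% of all genes), with a median of -0.12 beside -0.042.

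Calr, Hsp90b1, P4hb, Pdia3 and Hyou1 passed for the mean of both regions under all 10 other settings tried and in all 12 fits that left out 1 library. Hspa5, Pdia4 and Sec24d also passed in those 12 fits, and lost the call with median-of-ratios scaling only. The 8 remaining calls held in 2 to 5 of the 12 fits. The count of 16 went down to 8 without forebrain CSF-1 replicate 3, forebrain IL-34 replicate 2, forebrain IL-34 replicate 3 or cerebellum IL-34 replicate 2. It went down to 9 without forebrain CSF-1 replicate 2 or cerebellum IL-34 replicate 1. Without cerebellum CSF-1 replicate 1 it was 10, of which 9 were lower and 1 was higher. In these fits 5.82 to 8.11% of all genes tested were lower and 1.63 to 2.24% higher. With all libraries the shares were 10.7% and 2.73%. Median-of-ratios scaling, which moved the all-gene median in cerebellum from -0.10 to 0.0028, left 5 members lower and made 2, Edem2 and Sec61b, higher for the mean of both regions. In cerebellum it left 4 lower and the same 2 higher. Of all genes tested 4.94% were then lower and 5.71% higher for the mean of both regions, and 3.88% and 5.69% in cerebellum. The cerebellar count of 11 became 4 without cerebellum CSF-1 replicate 1 or 2, 5 without cerebellum IL-34 replicate 1 and 1, Pdia3, without cerebellum IL-34 replicate 2. The share of all genes tested that were lower fell too, from 9.82% to 2.47, 4.07, 4.94 and 1.76% in the same order. The share higher went from 3.00% to 1.02, 1.41, 1.7 and 0.652%.

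**Figure D1:**
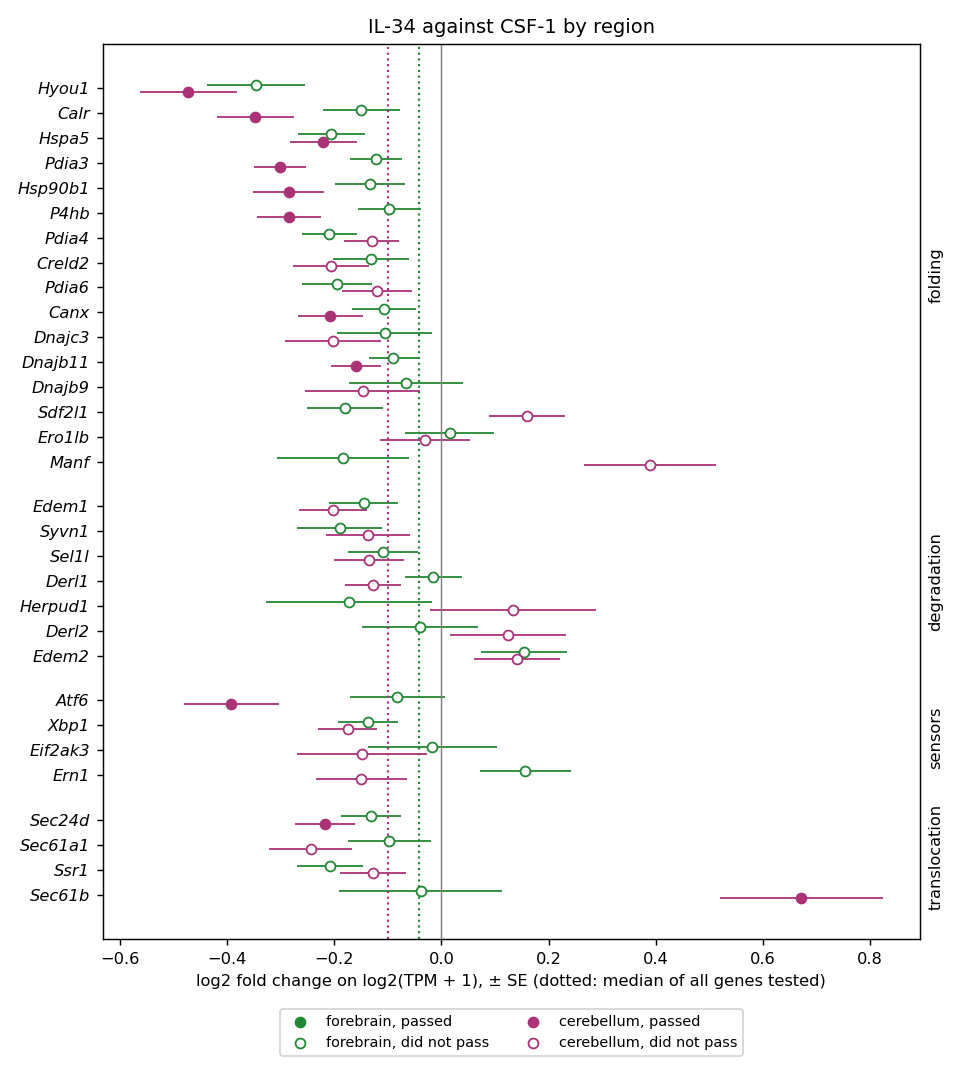
Log2 fold change of IL-34 against CSF-1 (horizontal axis, on log2(TPM + 1), with its SE as a bar) for the 31 members tested, ordered by class, in forebrain (green) and cerebellum (purple). Filled points passed an adjusted p of 0.05, and dotted lines give the median of all genes tested in each region. Most folding genes lie left of both medians, from -0.47 for Hyou1 in cerebellum, while Sec61b in cerebellum stands apart at 0.67.

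Hyou1 had the largest difference of the 31 for the mean of both regions. It encodes an Hsp110-type chaperone that serves as exchange factor for the Hsp70 of the ER (ENSMUSG00000032115, chr9:44379490-44392369, plus strand, GRCm38). Its levels were 30.3, 32.02 and 31.5 TPM in the forebrain CSF-1 libraries, 26.9, 23.1 and 23.4 in the forebrain IL-34 libraries, 30.5, 31.1 and 30.5 in the cerebellar CSF-1 libraries and 25.4, 20.4 and 20.0 in the cerebellar IL-34 libraries. All 6 IL-34 libraries lay below all 6 CSF-1 libraries. It fell with IL-34 by 0.41 ± 0.064 SE on the log2 scale for the mean of both regions (adjusted p = 0.00306) and by 0.47 ± 0.091 in cerebellum (adjusted p = 0.0116), where the call was lost without cerebellum IL-34 replicate 2 (-0.43, adjusted p = 0.0565). In forebrain the difference was -0.35 ± 0.091 (adjusted p = 0.1).

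Hspa5, the Hsp70 of the ER also known as BiP, was the most abundant member (ENSMUSG00000026864, chr2:34771970-34777547, plus strand). It stood at 684, 677 and 678 TPM in the forebrain CSF-1 libraries, 621, 558 and 591 in the forebrain IL-34 libraries, 593, 562 and 581 in the cerebellar CSF-1 libraries and 459, 488 and 547 in the cerebellar IL-34 libraries. The forebrain CSF-1 libraries were the highest of the 12, and within each region the IL-34 libraries were lower without overlap. The change was -0.21 ± 0.044 for the mean of both regions (adjusted p = 0.0118), -0.20 in forebrain (adjusted p = 0.151) and -0.22 in cerebellum (adjusted p = 0.0435, kept in 2 of the 12 fits without 1 library). Hsp90b1, the Hsp90 of the ER, was measured at 333, 334 and 339 TPM in the forebrain CSF-1 libraries, 328, 304 and 286 in the forebrain IL-34 libraries, 303, 284 and 283 in the cerebellar CSF-1 libraries and 221, 234 and 260.2 in the cerebellar IL-34 libraries. IL-34 libraries again lay below CSF-1 libraries in both regions, with the lowest values in cerebellum. Hsp90b1 fell by 0.21 ± 0.047 for the mean of both regions (adjusted p = 0.0155) and by 0.28 ± 0.066 in cerebellum (adjusted p = 0.022), the latter kept in 8 of the 12 fits and lost without cerebellum CSF-1 replicate 1 or 2 or cerebellum IL-34 replicate 1 or 2 (from -0.35 to -0.23 over the 12 fits).

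Pdia3, the disulfide isomerase that works with calnexin and calreticulin on glycoproteins (ENSMUSG00000027248, chr2:121413775-121438687, plus strand), stood at 556, 599 and 569 TPM in the forebrain CSF-1 libraries, 544, 507 and 535 in the forebrain IL-34 libraries, 501, 526 and 527 in the cerebellar CSF-1 libraries and 408, 412 and 441 in the cerebellar IL-34 libraries. The 3 cerebellar IL-34 libraries were the lowest of the 12 by a clear gap, and in forebrain the IL-34 libraries were lower by a narrow one. Pdia3 changed by -0.30 ± 0.049 in cerebellum (adjusted p = 0.00588), -0.12 ± 0.049 in forebrain (adjusted p = 0.281) and -0.21 ± 0.034 for the mean of both (adjusted p = 0.00368). In cerebellum it was the only member whose call was kept in all 11 other settings and all 12 fits without 1 library. Calr, which encodes the lectin chaperone and calcium store protein calreticulin (ENSMUSG00000003814, chr8:84841850-84846934, minus strand), was at 522, 622 and 573 TPM in the forebrain CSF-1 libraries, 529, 499 and 515 in the forebrain IL-34 libraries, 469, 510.4 and 503 in the cerebellar CSF-1 libraries and 414, 357 and 395 in the cerebellar IL-34 libraries. Forebrain libraries of the 2 ligands overlapped and cerebellar ones did not. Calr fell by 0.35 ± 0.071 in cerebellum (adjusted p = 0.0145), a call lost without cerebellum CSF-1 replicate 2 or cerebellum IL-34 replicate 2 (-0.32, adjusted p = 0.0501, and -0.29, adjusted p = 0.0645), and by 0.25 ± 0.050 for the mean of both regions (adjusted p = 0.0104), while forebrain gave -0.15 ± 0.071 (adjusted p = 0.379). Its membrane-bound relative Canx, calnexin, ranged from 334 to 435 TPM and was lower without overlap in both regions, with -0.16 for the mean of both (adjusted p = 0.0342) and -0.21 in cerebellum (adjusted p = 0.0467). The cerebellar call of Canx was kept in 2 of the 12 fits without 1 library and in 4 of the 11 other settings.

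P4hb, the founding disulfide isomerase and also a subunit of collagen prolyl 4-hydroxylase, was measured at 389, 425 and 437 TPM in the forebrain CSF-1 libraries, 418, 379 and 373 in the forebrain IL-34 libraries, 426, 413 and 403 in the cerebellar CSF-1 libraries and 355, 329.6 and 335 in the cerebellar IL-34 libraries. The cerebellar IL-34 libraries were the lowest of the 12, and forebrain libraries overlapped. P4hb fell by 0.28 ± 0.059 in cerebellum (adjusted p = 0.0152), a call lost without cerebellum CSF-1 replicate 1 or cerebellum IL-34 replicate 2 (-0.26 in both, adjusted p = 0.0615 and 0.0686), and by 0.19 ± 0.042 for the mean of both regions (adjusted p = 0.0148). Pdia4, another disulfide isomerase, was at 133, 132 and 131 TPM in the forebrain CSF-1 libraries, 118, 109.6 and 114 in the forebrain IL-34 libraries, 127, 121 and 114 in the cerebellar CSF-1 libraries and 107, 109 and 114 in the cerebellar IL-34 libraries. Its forebrain CSF-1 libraries were the 3 highest, and IL-34 libraries were lower without overlap in each region. Pdia4 fell by 0.17 ± 0.036 for the mean of both regions (adjusted p = 0.0136), from -0.21 in forebrain (adjusted p = 0.0889) and -0.13 in cerebellum (adjusted p = 0.116). Pdia6, which also acts on disulfides, was at 212, 220.2 and 228 TPM in the forebrain CSF-1 libraries, 201, 185 and 191 in the forebrain IL-34 libraries, 193, 169 and 184 in the cerebellar CSF-1 libraries and 154, 174 and 174 in the cerebellar IL-34 libraries. Forebrain libraries with CSF-1 were again the highest, and the cerebellar groups overlapped. The mean of both regions gave -0.16 ± 0.046 (adjusted p = 0.0453).

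**Figure D2:**
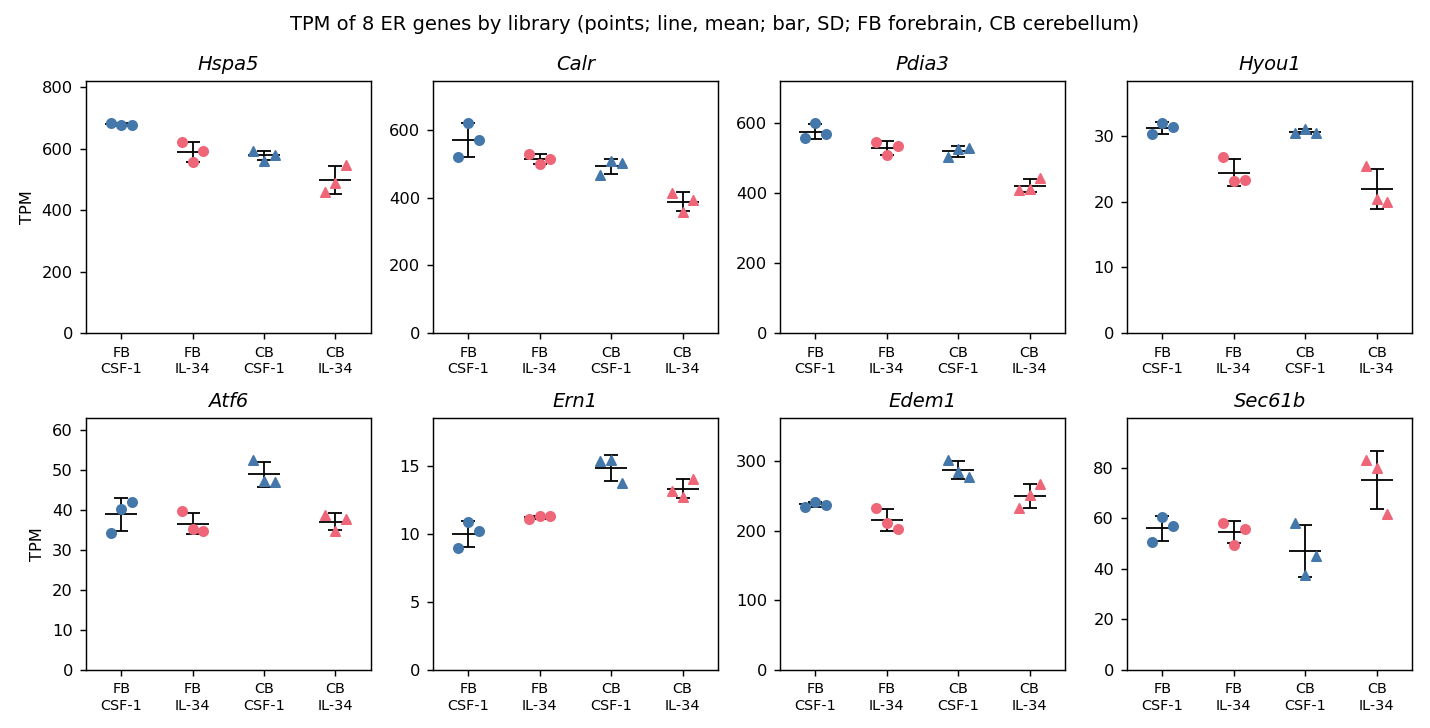
TPM of 8 members in each of the 12 libraries (vertical axes, linear and from 0), with the group mean as a line and the SD as a bar. The 4 chaperone genes of the upper row are lowest in cerebellum with IL-34, Hyou1 separates all 6 IL-34 from all 6 CSF-1 libraries, Ern1 separates the regions, and Sec61b is highest in cerebellum with IL-34.

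Of the cochaperones of the ER Hsp70, Dnajb11 passed and Dnajb9 and Dnajc3 did not. Dnajb11, a J-domain partner of Hspa5, stood at 149.7, 153 and 161 TPM in the forebrain CSF-1 libraries, 151, 141 and 143 in the forebrain IL-34 libraries, 146, 146 and 139 in the cerebellar CSF-1 libraries and 128, 127 and 130.3 in the cerebellar IL-34 libraries. The cerebellar IL-34 libraries were the 3 lowest and lay close together. Dnajb11 fell by 0.16 ± 0.046 in cerebellum (adjusted p = 0.0475) and by 0.12 ± 0.033 for the mean of both regions (adjusted p = 0.0313), calls that held in 2 and 4 of the 12 fits without 1 library. Dnajb9 (22.9 to 33.4 TPM) and Dnajc3 (33.5 to 46.6 TPM), J-domain proteins too, gave -0.11 and -0.15 for the mean of both regions and did not pass (adjusted p = 0.376 and 0.13). Creld2, a disulfide isomerase-like gene of the stress response, ranged from 39.8 to 58.0 TPM, was lower with IL-34 in both regions without overlap, and passed for the mean of both (-0.17, adjusted p = 0.047, kept in 2 of the 12 fits). Ero1lb, an oxidase that recharges the disulfide isomerases, was low and level at 12.9 to 15.3 TPM and gave -0.0072 ± 0.059 (adjusted p = 0.948).

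Sdf2l1 and Manf, both short and both known to be induced by ER stress, gave ligand differences of opposite sign in the 2 regions. Sdf2l1, which works with the Dnajb11 and Hspa5 cycle, was at 112, 100.4 and 100.4 TPM in the forebrain CSF-1 libraries, 85.9, 94.1 and 95.6 in the forebrain IL-34 libraries, 78.4, 84.3 and 92.8 in the cerebellar CSF-1 libraries and 93.8, 93.9 and 97.6 in the cerebellar IL-34 libraries. All forebrain IL-34 libraries lay below the forebrain CSF-1 libraries, and all cerebellar IL-34 libraries lay above the cerebellar CSF-1 libraries. The ligand difference was -0.18 ± 0.071 in forebrain (adjusted p = 0.277) and 0.16 ± 0.071 in cerebellum (adjusted p = 0.154), and neither passed. Manf, a secreted and ER-held protein with neurotrophic activity, was at 56.2, 58.0 and 55.0 TPM in the forebrain CSF-1 libraries, 42.3, 52.9 and 54.3 in the forebrain IL-34 libraries, 47.5, 50.9 and 56.0 in the cerebellar CSF-1 libraries and 71.8, 77.0 and 55.7 in the cerebellar IL-34 libraries. Cerebellar IL-34 replicates 1 and 2 were the highest of the 12 libraries, and replicate 3 was within the range of the rest. Manf gave -0.18 ± 0.12 in forebrain (adjusted p = 0.567) and 0.39 ± 0.12 in cerebellum (adjusted p = 0.0592). A transcript of 510 nt was listed at 10.7, 24.9 and 0 TPM in the cerebellar IL-34 libraries and at 0 in the 9 others, whereas the 2247 nt transcript was at 5.71 to 9.98 TPM there and at 8.83 to 15.2 TPM elsewhere.

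Of the 7 degradation genes tested, 1 changed with the ligand, Edem1, which encodes a mannosidase-like protein that picks misfolded glycoproteins for removal. Its levels were 235, 242 and 237 TPM in the forebrain CSF-1 libraries, 233, 211 and 202 in the forebrain IL-34 libraries, 302, 284 and 277 in the cerebellar CSF-1 libraries and 233, 251 and 267 in the cerebellar IL-34 libraries. IL-34 libraries were lower without overlap in both regions. Edem1 fell by 0.17 ± 0.045 for the mean of both regions (adjusted p = 0.0297), a call kept in 4 of the 12 fits without 1 library and in 3 of the 10 other settings. The relative Edem2 had positive differences in both regions. Edem2 ranged from 56.3 to 77.3 TPM and gave 0.15 in forebrain and 0.14 in cerebellum (adjusted p = 0.425 and 0.26), and 0.15 ± 0.057 for the mean of both (adjusted p = 0.106). With median-of-ratios scaling Edem2 passed as higher with IL-34 for the mean of both regions (0.23, adjusted p = 0.00973), and it also passed when only transcripts of 1000 nt or more were summed (0.18, adjusted p = 0.0216).

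Syvn1, the ubiquitin ligase of this route, and its partner Sel1l gave -0.16 and -0.12 for the mean of both regions and did not pass (adjusted p = 0.0753 and 0.103). Sel1l was the more abundant, at 129 to 165 TPM beside 40.1 to 54.8 TPM for Syvn1. The channel proteins Derl1 (128 to 151 TPM) and Derl2 (100.1 to 135 TPM) gave -0.071 and 0.042 (adjusted p = 0.226 and 0.746), and Derl3, the form known from secretory cells such as plasma cells, was listed at 0 in 6 libraries. Herpud1, a membrane protein of the same complex that is known as a stress target, ranged from 22.4 to 34.7 TPM with overlapping groups and an SE of 0.15 in each region, the widest of the members tested, so its differences of -0.17 in forebrain and 0.13 in cerebellum were within the replicate spread.

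Among the sensors, Xbp1 encodes the transcription factor made active when IRE1 cuts 26 bases out of its mRNA (ENSMUSG00000020484, chr11:5520659-5525893, plus strand). It was at 213, 219 and 228 TPM in the forebrain CSF-1 libraries, 215, 191 and 194 in the forebrain IL-34 libraries, 237, 218 and 218 in the cerebellar CSF-1 libraries and 195, 199 and 202 in the cerebellar IL-34 libraries. Cerebellar libraries of the 2 ligands did not overlap, while in forebrain IL-34 replicate 1 lay above CSF-1 replicate 1. Xbp1 fell by 0.16 ± 0.039 for the mean of both regions (adjusted p = 0.0252, kept in 5 of the 12 fits without 1 library). The IRE1 site is printed here from the GENCODE M21 transcript that held between 88.2 and 91.0% of Xbp1 TPM, with the 26 bases that are removed in capitals. It lies in exon 4 of that transcript, within its coding sequence.
Xbp1, chr11:5524270-5524319, plus strand: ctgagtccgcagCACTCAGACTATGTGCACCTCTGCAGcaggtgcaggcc
Of the 4 Xbp1 transcripts in the table, 3 hold these 26 bases between both cut sites, the other does not, and 0 have the joined form. Cut and uncut Xbp1 mRNA are therefore not told apart by these values, and the level given is that of both.

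Atf6, which encodes the membrane-bound factor that is cleaved in the Golgi, was at 34.3, 40.3 and 42.0 TPM in the forebrain CSF-1 libraries, 39.7, 35.3 and 34.8 in the forebrain IL-34 libraries, 52.6, 47.3 and 46.9 in the cerebellar CSF-1 libraries and 38.7, 34.6 and 37.8 in the cerebellar IL-34 libraries (ENSMUSG00000026663, chr1:170704674-170867771, minus strand). The cerebellar CSF-1 libraries were the 3 highest, and the other 3 groups overlapped. Atf6 fell with IL-34 in cerebellum by 0.39 ± 0.088 (adjusted p = 0.0198), a call lost without cerebellum CSF-1 replicate 1 or cerebellum IL-34 replicate 2 (-0.34, adjusted p = 0.0799, and -0.35, adjusted p = 0.0856), and by 0.24 ± 0.062 for the mean of both regions (adjusted p = 0.0304). In forebrain it gave -0.082 ± 0.088 (adjusted p = 0.757). Ern1, the gene of IRE1, was at 8.93, 10.8 and 10.2 TPM in the forebrain CSF-1 libraries, 11.1, 11.3 and 11.3 in the forebrain IL-34 libraries, 15.4, 15.4 and 13.7 in the cerebellar CSF-1 libraries and 13.1, 12.7 and 14.0 in the cerebellar IL-34 libraries (ENSMUSG00000020715, chr11:106394650-106487852, minus strand). Every cerebellar library lay above every forebrain library. IL-34 gave 0.16 ± 0.085 in forebrain and -0.15 ± 0.085 in cerebellum (adjusted p = 0.45 and 0.262). Eif2ak3, the gene of PERK, was the lowest of the 31 members tested, at 7.82, 10.2 and 9.27 TPM in the forebrain CSF-1 libraries, 9.94, 8.54 and 8.38 in the forebrain IL-34 libraries, 10.3, 10.2 and 8.33 in the cerebellar CSF-1 libraries and 9.06, 7.67 and 8.99 in the cerebellar IL-34 libraries. All 4 groups overlapped, and the mean of both regions gave -0.083 ± 0.086 (adjusted p = 0.555).

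The translocation genes include the member with the largest positive difference, Sec61b. Sec61a1, the pore of the channel through which new proteins enter the ER, was at 193, 206 and 183 TPM in the forebrain CSF-1 libraries, 178, 178 and 188 in the forebrain IL-34 libraries, 192, 222 and 208 in the cerebellar CSF-1 libraries and 171, 159.9 and 194 in the cerebellar IL-34 libraries. Cerebellar IL-34 replicate 3 lay among the cerebellar CSF-1 libraries and forebrain groups overlapped, and the mean of both regions did not pass (-0.17 ± 0.055, adjusted p = 0.0628). Sec61b, the small subunit of that channel (ENSMUSG00000053317, chr4:47474658-47483242, plus strand), was at 50.7, 60.4 and 56.9 TPM in the forebrain CSF-1 libraries, 58.2, 49.5 and 55.7 in the forebrain IL-34 libraries, 58.2, 37.7 and 45.1 in the cerebellar CSF-1 libraries and 83.1, 79.9 and 61.8 in the cerebellar IL-34 libraries. The 3 cerebellar IL-34 libraries were the 3 highest of the 12. Sec61b rose by 0.67 ± 0.15 in cerebellum (adjusted p = 0.0204), a call lost without cerebellum CSF-1 replicate 2, cerebellum IL-34 replicate 1 or cerebellum IL-34 replicate 2 (0.53, 0.59 and 0.62, adjusted p = 0.064, 0.0667 and 0.0836), and gave -0.039 ± 0.15 in forebrain (adjusted p = 0.952). The call was also lost with protein coding transcripts only (3.37, adjusted p = 0.0781), with no filter on low values and with the 2 groups compared only (0.67 in both). Its values come from transcripts that differ in length. The 564 nt coding transcript was at 59.5, 60.1 and 35.9 TPM in the cerebellar IL-34 libraries, and at 0 in 5 and up to 20.4 TPM in the other 4 of the 9 remaining libraries. The 723 nt transcript with a retained intron was at 23.6, 19.8 and 25.9 TPM in the cerebellar IL-34 libraries and between 27.2 and 58.2 TPM in the 9 others. These are the libraries with the high share of short transcripts.

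Ssr1, a subunit of the TRAP complex beside the channel, ranged from 35.5 to 44.4 TPM, and passed for the mean of both regions (-0.17 ± 0.043, adjusted p = 0.0291). The difference was gone when only transcripts of 1000 nt or more were summed and trends of length and GC content were removed (0.0046, adjusted p = 0.97). Its mean transcript length, weighted by TPM, was 9333 nt, the longest among the members. Sec24d, a coat protein of the vesicles that leave the ER, ranged from 48.6 to 60.6 TPM, fell by 0.22 ± 0.056 in cerebellum (adjusted p = 0.0331) and by 0.17 ± 0.040 for the mean of both regions (adjusted p = 0.0169), and kept the second call in all 12 fits without 1 library. Its cerebellar call was kept in 7 of the 12 fits and in 4 of the 11 other settings.

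Members were therefore set beside genes of like transcript length. For the cerebellar ligand comparison the all-gene median was 0.42 for genes under 800 nt, 0.020 from 800 to 1500 nt, -0.096 from 1500 to 3000 nt and -0.16 at 3000 nt or more. The members' medians were 0.67 (Sec61b alone), 0.16 (3 genes, with Manf and Sdf2l1 above and Creld2 below the all-gene value), -0.17 (14 genes) and -0.15 (13 genes). In forebrain, where the all-gene medians ran from -0.0094 to -0.063 over the same bands, the members gave -0.039, -0.18, -0.13 and -0.11. With the log2 of each library's share of transcripts under 600 nt as a covariate, Pdia3 was the only member that passed in cerebellum (-0.31, adjusted p = 0.0399). Of all genes tested 0.805% were then lower and 0.427% higher, beside 9.82% and 3.00% without the covariate. The covariate was highest in the 3 cerebellar IL-34 libraries, so it partly stands for that group. Of the 10 calls lost, 4 had differences as large as without the covariate or nearly so, those of Hyou1 (-0.45, adjusted p = 0.103), Calr (-0.38, adjusted p = 0.0804), Canx (-0.23, adjusted p = 0.176) and Sec61b (0.805, adjusted p = 0.0778). The other 6 were smaller, for Atf6 (-0.25), P4hb (-0.21), Hsp90b1 (-0.185), Hspa5 (-0.16), Sec24d (-0.15) and Dnajb11 (-0.096), with adjusted p from 0.158 to 0.378. For the mean of both regions 10 members were lower with IL-34 under the covariate and Edem2 was higher (0.20, adjusted p = 0.0296). The background was 7.33% lower and 2.6% higher.

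**Figure D3:**
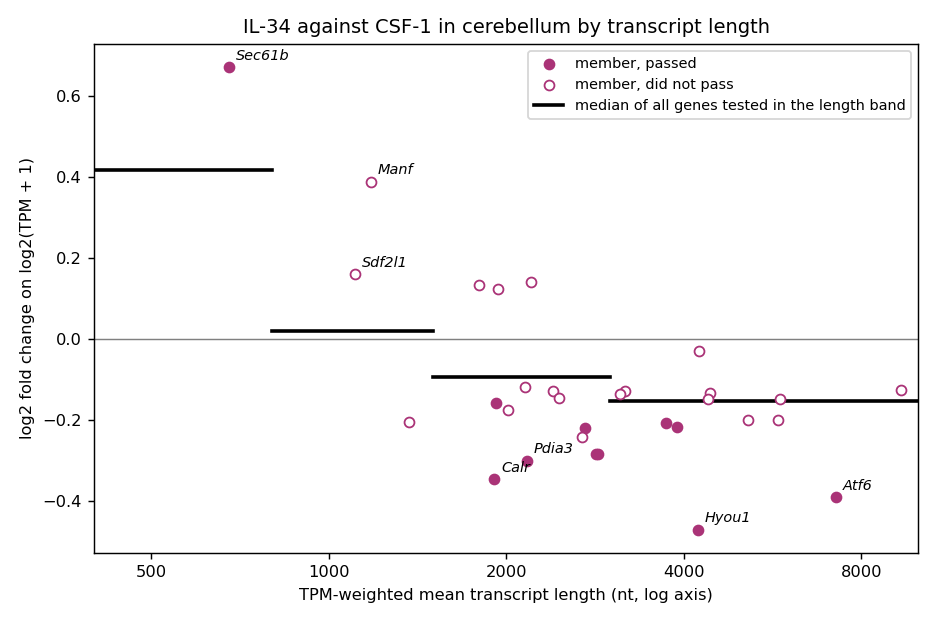
Log2 fold change of IL-34 against CSF-1 in cerebellum (vertical axis, on log2(TPM + 1)) against the TPM-weighted mean transcript length of each of the 31 members tested (horizontal axis, nt, logarithmic). Black lines give the median of all genes tested in each length band. Sec61b, Manf and Sdf2l1 sit at the short end above 0, and Calr, Pdia3, Hyou1 and Atf6 lie below the medians of their bands.

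Counting libraries rather than fitted values, 13 members had all forebrain IL-34 libraries below all forebrain CSF-1 libraries, where 12.6% of all genes tested did. In cerebellum 17 members did, where 27.9% of all genes did. Both held for 8 members, namely Hspa5, Hsp90b1, Canx, Pdia3, Pdia4, Hyou1, Creld2 and Edem1, where 6.35% of all genes did. Of these 8, 7 are folding genes and Edem1 is the only gene of degradation. The summed plasma cell markers, a cell type rich in ER, were 12.1 to 13.2 TPM in forebrain with IL-34, above the 9.08 to 10.5 TPM with CSF-1, and 10.4 to 15.2 against 10.3 to 12.6 TPM in cerebellum. Of the 6 plasma cell markers 2 were tested, and they went in opposite directions. Their differences were -0.11 and 0.35 in forebrain and -0.34 and 0.26 in cerebellum, so the sums do not show a shared rise. The oligodendrocyte markers summed to 73.6 to 80.0 TPM in cerebellum with IL-34 and 89.1 to 98.3 TPM with CSF-1. Astrocyte markers (14.5 to 15.7 against 17.1 to 19.8 TPM) and fibroblast and mural markers (3.11 to 3.30 against 3.91 to 5.03 TPM) were also lower there with IL-34 without overlap. Single markers were mixed. Of those tested, 3 of 5 for the oligodendrocyte lineage, 5 of 6 for astrocytes and 1 of 2 for fibroblasts and mural cells had negative differences. The part of these other cells in the results was not tested.

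The region by ligand interaction asks whether the ligand difference itself differed between cerebellum and forebrain. limma called 0 of the 31 members (background 0.121% higher and 0.0242% lower), and 7 had an unadjusted p under 0.05, as did 12.1% of all genes tested. The smallest p-values belonged to Sdf2l1 (0.34 ± 0.10, adjusted p = 0.287), Sec61b (0.71 ± 0.21, adjusted p = 0.296) and Manf (0.57 ± 0.17, adjusted p = 0.296), 3 short genes with positive ligand differences in cerebellum, of which only that of Sec61b passed. For Pdia3, Calr and Atf6, which passed in cerebellum and not in forebrain, the interaction gave -0.18 ± 0.069, -0.20 ± 0.10 and -0.31 ± 0.12 (adjusted p = 0.352, 0.45 and 0.367), so a difference between regions was not shown for them. Hspa5 gave -0.015 ± 0.088 (adjusted p = 0.963).

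Cerebellar and forebrain microglia were compared under each ligand. With CSF-1, 2 members were higher in cerebellum, Ern1 and Edem1, and 2 were lower, Pdia6 and Sdf2l1 (background 3.29% higher and 3.42% lower). With IL-34, 2 were higher, Manf and Edem1, and 6 were lower, all of them folding genes, Pdia3, Calr, Hsp90b1, Hspa5, Dnajb11 and Creld2 (background 5.27% higher and 8.22% lower). The median over the 31 members was -0.026 with CSF-1 and -0.024 with IL-34, beside 0.031 and -0.020 over all genes. The 16 folding genes had medians of -0.13 and -0.18, with 13 and 14 of 16 differences negative, where 43.8 and 53.6% of all genes tested were negative. The degradation genes had medians of 0.09 and 0.10, with 5 and 6 of 7 positive, and the difference between the classes was not tested. The comparisons under the 2 ligands share no libraries, but that with IL-34 uses the cerebellar IL-34 libraries that also enter the ligand comparison in cerebellum.

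**Figure D4:**
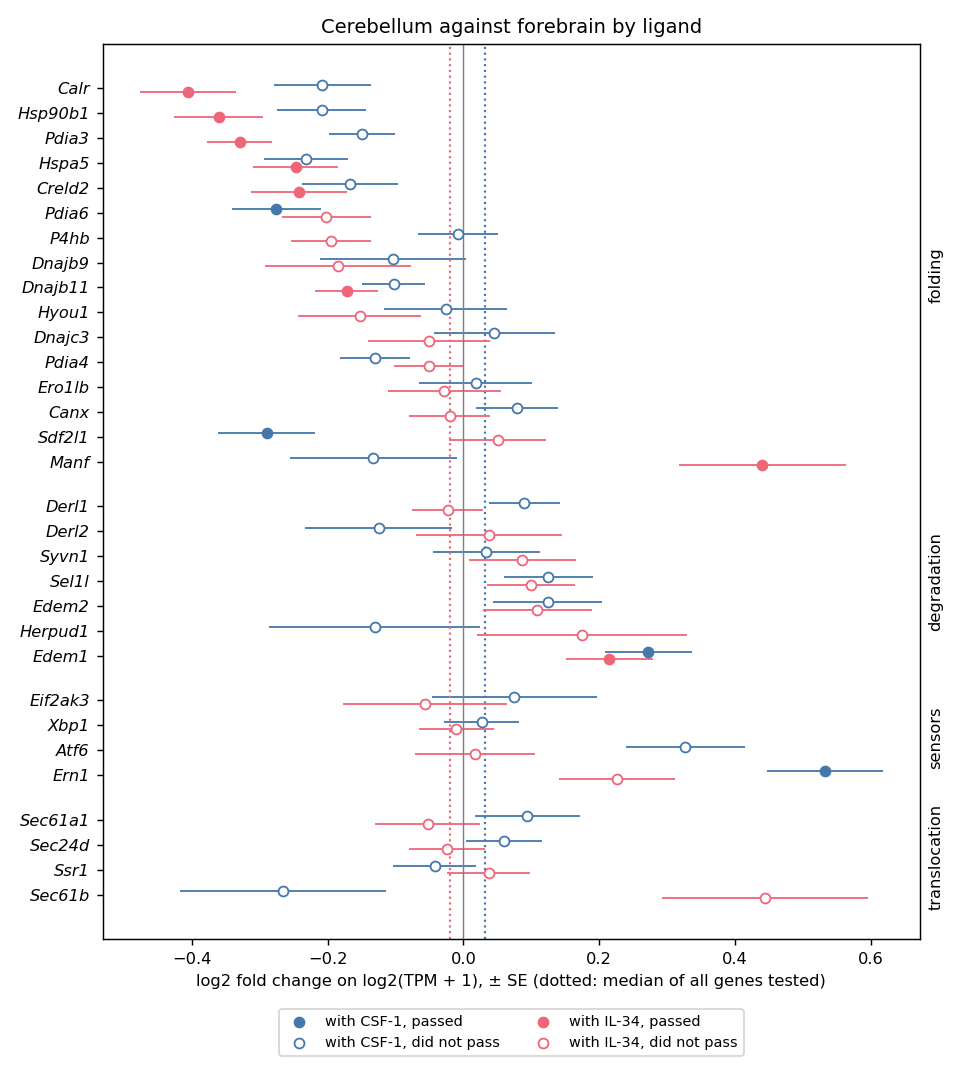
Log2 fold change of cerebellum against forebrain (horizontal axis, on log2(TPM + 1), with its SE as a bar) for the 31 members tested, ordered by class, with CSF-1 (blue) and with IL-34 (red). Filled points passed an adjusted p of 0.05, and dotted lines give the median of all genes tested. Chaperones such as Calr and Hsp90b1 lie to the left with both ligands, and Ern1 and Edem1 to the right.

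Ern1 had the largest region difference with CSF-1 (log2 fold change 0.53 ± 0.085 SE, adjusted p = 0.00404), from 9.97 ± 0.966 TPM in forebrain to 14.8 ± 0.953 TPM in cerebellum. The call held in all 12 fits without 1 library and in 10 of 11 other settings, and was lost in the fit on 9 libraries, which leaves out the 3 with the smallest share of transcripts under 600 nt (forebrain CSF-1 replicate 3, forebrain IL-34 replicate 1 and cerebellum CSF-1 replicate 1). With IL-34 Ern1 was 11.2 ± 0.116 and 13.3 ± 0.689 TPM, without overlap, and did not pass (log2 fold change 0.23 ± 0.085 SE, adjusted p = 0.103). Atf6 was also higher in cerebellum with CSF-1 without overlap, at 48.9 ± 3.18 against 38.9 ± 4.07 TPM, and missed the threshold (log2 fold change 0.33 ± 0.088 SE, adjusted p = 0.0504). Edem1 was higher in cerebellum with both ligands, at 288 ± 13.0 against 238 ± 3.46 TPM with CSF-1 (log2 fold change 0.27 ± 0.064 SE, adjusted p = 0.0295) and 250.2 ± 17.1 against 215 ± 15.5 TPM with IL-34 (log2 fold change 0.21 ± 0.064 SE, adjusted p = 0.0482). The Edem1 call with CSF-1 was kept in 7 of the 12 fits without 1 library and in 8 of the 11 other settings. That with IL-34 was kept in 3 of the 12 fits and in 7 of the 11 settings.

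Calr, Hsp90b1 and Pdia3 were lower in cerebellum with both ligands without overlap, and passed with IL-34. Calr gave -0.41 ± 0.071 (adjusted p = 0.00432) and -0.21 with CSF-1 (adjusted p = 0.11). Hsp90b1 gave -0.36 ± 0.066 (adjusted p = 0.00535) and -0.21 (adjusted p = 0.0856). Pdia3 gave -0.33 ± 0.049 (adjusted p = 0.00176) and -0.15 (adjusted p = 0.0928). These 3 calls with IL-34 were kept in all 12 fits without 1 library, and that of Pdia3 in all 11 other settings too. Hspa5 was lower with IL-34 by the same measure (-0.25 ± 0.062, adjusted p = 0.0256) and did not pass with CSF-1 (-0.23, adjusted p = 0.0504). Dnajb11 and Creld2 passed with IL-34 at -0.17 and -0.24 (adjusted p = 0.0325 and 0.0442). Without 1 library the calls with IL-34 were kept in 8 of the 12 fits for Hspa5, 7 for Dnajb11 and 2 for Creld2.

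Pdia6 and Sdf2l1 were the folding genes lower in cerebellum with CSF-1, at -0.28 ± 0.065 and -0.29 ± 0.071 (adjusted p = 0.0297 and 0.0358). Without 1 library these calls were kept in 7 and 5 of 12 fits. The count of 4 members with CSF-1 became 11 with median-of-ratios scaling, 9 with transcripts of 1000 nt or more and 0 in the fit on 9 libraries. Of all genes 5.16, 6.3 and 1.51% were then lower and 3.7, 6.73 and 1.23% higher. Without forebrain CSF-1 replicate 1, 2 or 3 or cerebellum CSF-1 replicate 2 the count was 1, and without cerebellum CSF-1 replicate 1 it was 2. In these fits 1.93 to 2.4% of all genes tested were lower and 1.33 to 2.17% higher, beside 3.42% and 3.29% with all libraries. Manf was higher in cerebellum with IL-34 (0.44 ± 0.12, adjusted p = 0.0369), and reversed when only transcripts of 1000 nt or more were summed (-0.73, adjusted p = 0.00738). The Manf call was kept in 6 of the 12 fits without 1 library. The regions also differed in markers of other cells. Astrocyte markers summed to 28.9 to 31.7 TPM in the forebrain groups and 14.5 to 19.8 TPM in the cerebellar ones, fibroblast and mural markers to 7.07 to 12.02 and 3.11 to 5.03 TPM, choroid plexus and ependymal markers to 1.61 to 2.28 and 10.3 to 40.6 TPM, oligodendrocyte lineage markers to 56.2 to 69.8 and 73.6 to 98.3 TPM, and neuronal markers to 1.15 to 2.24 and 0.281 to 0.704 TPM. Single markers did not all follow their sums. With each ligand 2 of 5 oligodendrocyte lineage markers tested and 1 of 3 choroid plexus and ependymal ones had negative differences. Both fibroblast and mural markers tested were negative, as were 5 of 6 astrocyte markers with CSF-1 and 6 of 6 with IL-34. The part of these other cells in the region differences was not tested.

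A wider list of 95 ER genes, 93 of them tested, gave the setting of these changes. For the mean of both regions 17 were lower with IL-34 and 4 higher (background 10.7% and 2.73%), in cerebellum 15 and 6 (background 9.82% and 3.00%), and in forebrain 1 and 0 (background 0.773% and 0.427%). The 4 that rose for the mean of both regions were Ddit3, Trib3, Selk and Cnpy2. Ddit3, the gene of CHOP and a target of the PERK arm, was at 60.6 ± 10.6, 72.3 ± 9.44, 65.4 ± 6.57 and 97.2 ± 1.94 TPM in the forebrain CSF-1, forebrain IL-34, cerebellar CSF-1 and cerebellar IL-34 groups (log2 fold change 0.41 ± 0.092 SE, adjusted p = 0.015). In cerebellum alone Ddit3 gave 0.57 ± 0.13 SE (adjusted p = 0.0204). Its transcript is short, at 892 nt. From 800 to 1500 nt the all-gene median was 0.0080 for the mean of both regions and 0.020 in cerebellum, and under 800 nt it was 0.19 and 0.42. The part of transcript length in the Ddit3 difference was not tested. Trib3, a pseudokinase downstream of CHOP, rose by 0.17 ± 0.051 (adjusted p = 0.044) and was higher in cerebellum with either ligand (0.52 with CSF-1, adjusted p = 0.0017, and 0.44 with IL-34, adjusted p = 0.00295). Ppp1r15a, the GADD34 gene that restores translation, rose with IL-34 in cerebellum (log2 fold change 0.31 ± 0.083 SE, adjusted p = 0.0354), whereas Ppp1r15b, its constant counterpart, fell for the mean of both regions (log2 fold change -0.20 ± 0.058 SE, adjusted p = 0.0417). So did Mbtps1, the Golgi protease that cleaves ATF6 (log2 fold change -0.20 ± 0.041 SE, adjusted p = 0.0128). Atf4 and Chac1, also sensor genes of this list, did not rise in cerebellum. Atf4 was at 169 ± 9.97 TPM with CSF-1 and 168 ± 11.8 with IL-34 there, and at 143 ± 11.4 and 164 ± 4.85 in forebrain. Chac1 was at 8.44 ± 1.06 and 6.93 ± 0.60 TPM in cerebellum. Of the 14 sensor genes of the list tested, 11 had negative differences in cerebellum (78.6%, beside 68% of all genes). There 2 passed as higher and 1 as lower.

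Genes of trafficking and translocation, the largest class with 36 of the 93 tested, made up 9 of the 17 that fell, and their share was not tested. Kdelr2, a receptor that returns escaped chaperones to the ER, went from 47.9 ± 2.41 to 35.1 ± 3.21 TPM in cerebellum (log2 fold change -0.44 ± 0.073 SE, adjusted p = 0.00687). Ssr3, a TRAP subunit like Ssr1, went from 130.1 ± 6.23 to 97.7 ± 7.13 TPM (log2 fold change -0.41 ± 0.077 SE, adjusted p = 0.0106). Sec31a, a coat protein that joins Sec24d on vesicles leaving the ER, was the gene of the list that passed in forebrain (log2 fold change -0.35 ± 0.070 SE, adjusted p = 0.0413), and Lman1, a cargo receptor, fell for the mean of both regions (log2 fold change -0.18 ± 0.046 SE, adjusted p = 0.0257). Among folding genes outside the 32, Calu, Mogs and Ero1l fell (-0.21, -0.28 and -0.20, adjusted p = 0.0269, 0.0315 and 0.0383). In degradation Vcp, the ATPase that pulls proteins out of the membrane, fell by 0.14 ± 0.032 (adjusted p = 0.0144).

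The promoter matches were set beside the calls. For the mean of both regions 7 of 11 tested members with an ERSE or ERSE-II were lower with IL-34 (median -0.16), and 7 of 15 with a window but no match (median -0.12). Of all genes tested 10.7% were lower. In cerebellum the numbers were 5 of 11 and 3 of 15 lower (background 9.82%). For cerebellum against forebrain with IL-34 they were 5 of 11 and 1 of 15 lower (background 8.22%), with medians of -0.17 and 0.037. Outside the members, 37 genes held a match, of which 12 were tested, and 2 of these were lower and 1 higher with IL-34 for the mean of both regions (median -0.078). In cerebellum 3 of the 12 were lower and 1 higher (median -0.14). For cerebellum against forebrain with IL-34, 2 were lower and 1 higher (median -0.23). Members with and without the letters thus both held genes that fell, and the difference between them was not tested.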

How the data were processed

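The authors deposited TPM for each Ensembl transcript. Per the submitters' processing notes, kallisto 0.43.0 and GRCm38 were used. No source used here gives the annotation release, a filter or a bias correction. Per the labels' protocols, cDNA came from the SMART-Seq v4 kit, which does not mark strand, so overlapping antisense genes and near-identical copies share reads in ways these values cannot resolve.

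TPM was summed per gene. Positions and lengths came from GENCODE M21, which held 114255 of 115879 transcripts (98.6%). limma 3.58.1 in R 4.3.3 was fitted to log2(TPM + 1) for the 12419 genes that reached 1 TPM in 3 or more of the 12 libraries, with 4 group means, a variance trend and 8 residual degrees of freedom, two-sided. Log2 fold changes on this scale understate changes of low genes. Precision rests on the spread between libraries, since TPM keeps no depth. The fit was tested on simulated data.

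The members and all gene lists were chosen with earlier results of these data known. Values per library are given for up to 6 members with the smallest p past the threshold in each contrast, the most abundant member of each class and Xbp1, Atf6, Ern1 and Eif2ak3. Of the wider ER lists up to 4 genes per list and contrast are named. Alternatives covered pseudocount, filter, scaling, transcript length and type, the replicate block, which groups enter the fit, and each library left out in turn. A covariate for the log2 of the share of TPM in transcripts under 600 nt, and a fit on 9 libraries without the 3 lowest in that share, were chosen after seeing the data.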

Additional observations from a re-analysis of the deposited data

How the results depend on the processing

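The number of members called was the least stable value. With pseudocount 0.1 every count stayed as reported, and the interaction called 0 members under every alternative run. Each count takes members called lower and higher together. Brackets give the shares of all genes in that fit that were lower and higher, in that order. For forebrain the count of 0 (0.773 and 0.427%) became 2 with long transcripts, those of 1000 nt or more (2.6 and 1.28%). It became 5, 4 lower and 1 higher, with length and GC trends also removed (3.94 and 4.15%). It became 1 with the short-transcript covariate (1.57 and 0.692%). The cerebellar 11 (9.82 and 3.00%) became 14, all lower, with long transcripts (21.1 and 2.02%) and stayed at 11 with protein coding ones (13.5 and 3.46%). It became 7 with no filter (2.49 and 0.754%), 7 with quantile normalization (5.83 and 3.63%) and 7 with long transcripts and trends removed (7.39 and 6.63%). It became 6 with median-of-ratios scaling (3.88 and 5.69%), 5 with the 2 groups compared only (4.74 and 1.52%), 1 with the covariate (0.805 and 0.427%) and 6 on 9 libraries (3.91 and 1.63%). For the mean of both regions the count of 16, all lower (10.7 and 2.73%), became 19 with long transcripts, 18 lower and 1 higher (21.4 and 3.1%). It became 17 with protein coding ones, 16 lower and 1 higher (14.8 and 3.3%). It became 12 with trends removed, 11 lower and 1 higher (9.4 and 9.21%), and 11 with no filter, all lower (3.47 and 0.852%). It became 7 with median-of-ratios scaling, 5 lower and 2 higher (4.94 and 5.71%). It became 10 with quantile normalization, 9 lower and 1 higher (5.92 and 3.82%), and 11 with the covariate, 10 lower and 1 higher (7.33 and 2.6%). It became 11 on 9 libraries, all lower (6.08 and 1.58%). Cerebellum against forebrain with CSF-1 went from 4 (3.42 and 3.29%) to 1 with no filter (1.23 and 1.09%), 11 with median-of-ratios scaling (5.16 and 3.7%) and 6 with quantile normalization (3.95 and 3.45%). It became 9 with long transcripts (6.3 and 6.73%), 10 with trends removed (8.95 and 7.31%) and 7 with protein coding transcripts (4.3 and 3.52%). It became 3 with the 2 groups compared only (1.94 and 1.73%), 7 with the covariate (4.4 and 4.61%) and 0 on 9 libraries (1.51 and 1.23%). With IL-34 the 8 (8.22 and 5.27%) became 10 with median-of-ratios scaling (8.38 and 7.95%), 10 with long transcripts (15.5 and 4.67%) and 10 with trends removed (11.2 and 7.78%). It became 11 with protein coding transcripts (10.6 and 4.73%), 4 with no filter (3 and 1.59%) and 3 with the 2 groups compared only (5.6 and 3.95%). It became 1 with the covariate (1.46 and 1.19%) and 4 on 9 libraries (5.69 and 5.11%). Leaving out each library in turn gave 0 to 1 member in forebrain, 1 to 14 in cerebellum, 8 to 18 for the mean of both regions, 1 to 6 with CSF-1 and 3 to 9 with IL-34 between regions. The share of all genes tested that were lower ran, in the same order, from 0.121 to 1.02%, 1.76 to 10.9%, 5.82 to 13.9%, 1.93 to 3.5% and 4.21 to 8.84%. Leaving out 1 library leaves 2 in its group, and fewer samples lower the residual degrees of freedom.

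The labels number replicates 1 to 3 in every group without saying that a number is shared. Deviations of same-numbered libraries correlated between -0.454 and 0.458 over 18 pairs and of others between -0.455 and 0.569 over 36. The ranges overlapped, so a pairing by number was not shown. With 3 libraries per group this check cannot exclude one. With a replicate block 7 members were called in cerebellum, 9 for the mean of both regions, 1 with CSF-1 and 4 with IL-34 between regions. Of all genes tested 5.89, 7.78, 2.7 and 7.16% were then lower and 2.05, 2.09, 2.24 and 4.42% higher, in that order.

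Of the 39 member differences called, 2 changed sign under an alternative. Ssr1 for the mean of both regions was 0.00461 once length and GC trends were removed from the long transcripts. Manf in cerebellum against forebrain with IL-34 was -0.727 with long transcripts and -0.661 with trends removed too. The latter follows from what is summed, since transcripts under 1000 nt hold most of Manf, and the cause for Ssr1 was not tested.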
